A study of Mus musculus with 7 samples.

Results

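The 10 genes described here mark blood stem cells or the multipotent progenitors next to them, and they were followed across 7 libraries of mouse LSK cells: Slamf1, Procr, Cd9, Fgd5, Hlf and Mecom on the stem cell side, and Cd48, Cd34, Cd27 and Ly9 on the progenitor side. They were chosen by symbol, and all 10 of them were found among the 39179 Ensembl gene IDs of the deposited table, each under a single ID. LSK cells are bone marrow cells that lack lineage markers and carry Sca-1 and Kit, and they were sorted by flow cytometry from C57/BL6 mice aged 7 weeks. The 4 control libraries came from mice that carried only Vav1Cre, and the 3 Jmjd1c libraries from animals of genotype Jmjd1c f/f Vav1Cre, where Cre from the blood-expressed Vav1 promoter acts on a floxed Jmjd1c gene. Both groups thus carry Vav1Cre, and the labels do not give a Jmjd1c f/f group without Cre. Whether the libraries stem from different animals is not stated in the labels either, so a p-value measures the spread between libraries alone, and that spread may be technical. Values are normalized read counts, that is, reads scaled by the size factor of their library.

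Stem cells and multipotent progenitors share the LSK gate and are told apart inside it by further surface proteins. CD150, the product of Slamf1, marks long-term stem cells, while CD48 appears on progenitors, and CD34 and CD27 appear on cells past the most dormant stem cells. EPCR, the product of Procr, marks stem cells, and the nuclear factors Hlf and Mecom maintain their self-renewal. In bulk libraries, fewer cells of a type and less RNA per cell cannot be told apart.

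The gate and the targeted gene were checked first. Kit was 5848 ± 802 normalized read counts in control (SD, n = 4) and 6460 ± 721 in Jmjd1c (SD, n = 3), and Ly6a, which encodes Sca-1, was 820 ± 96.5 and 784 ± 55.6. Neither passed the test (log2 fold changes 0.15 ± 0.11 and -0.06 ± 0.10, standard error). Jmjd1c itself was 458, 466, 516 and 512 in controls 1 to 4 and 294, 244 and 254 in Jmjd1c 1 to 3, so every library labelled Jmjd1c lay below every control. Its log2 fold change was -0.89 ± 0.09, a fall that passed the test (limma, adjusted p = 0.00407). Recovered reads in genes ran from 4303712 to 6436519 per library. Control 4 stood apart in macrophage and dendritic cell genes: the list of 13 summed to 72542 normalized read counts there. In the other controls the sum was 17421 to 26548, and in Jmjd1c it was 17895 to 29763. Cd74 made up 63066 of that sum, and the other 12 genes summed to 9476 in control 4, to 2382 to 3378 in the other controls and to 2153 to 3734 in Jmjd1c. The log2 fold change of each marker is therefore given with and without control 4. Over all tested genes, Jmjd1c 3 was the library least like the others. Its mean Pearson's r with them was 0.964, against 0.970 in control 4 and up to 0.980 elsewhere.

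Per kilobase of exon, Cd48, Cd34 and Cd27 led the order of levels. Cd48 stood at 1215 ± 99.7 normalized read counts per kb in control (SD, n = 4) and Cd34, a sialomucin, at 1132 ± 40.8, and the ranges of this pair over libraries overlapped. Cd27, a receptor of the TNF receptor family, followed at 646 ± 44.1, the tetraspanin Cd9 at 322 ± 11.3 and the transcription factor Hlf at 229 ± 27.3, and no ranges of neighbours overlapped between Cd34 and Hlf. Ly9 at 107 ± 17.2 and Procr at 105 ± 22.3 could not be ordered. Mecom stood at 32.0 ± 3.58, and Fgd5 at 7.22 ± 1.70 and Slamf1 at 5.94 ± 1.40 overlapped at the low end. Slamf1, the gene most used to mark stem cells at the surface, thus had the lowest level per kb of the 10, on 23 to 56 recovered reads per library. Exon length here is the union of all annotated exons, which lowers the level of genes with many isoforms such as Mecom.

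**Figure D1:**
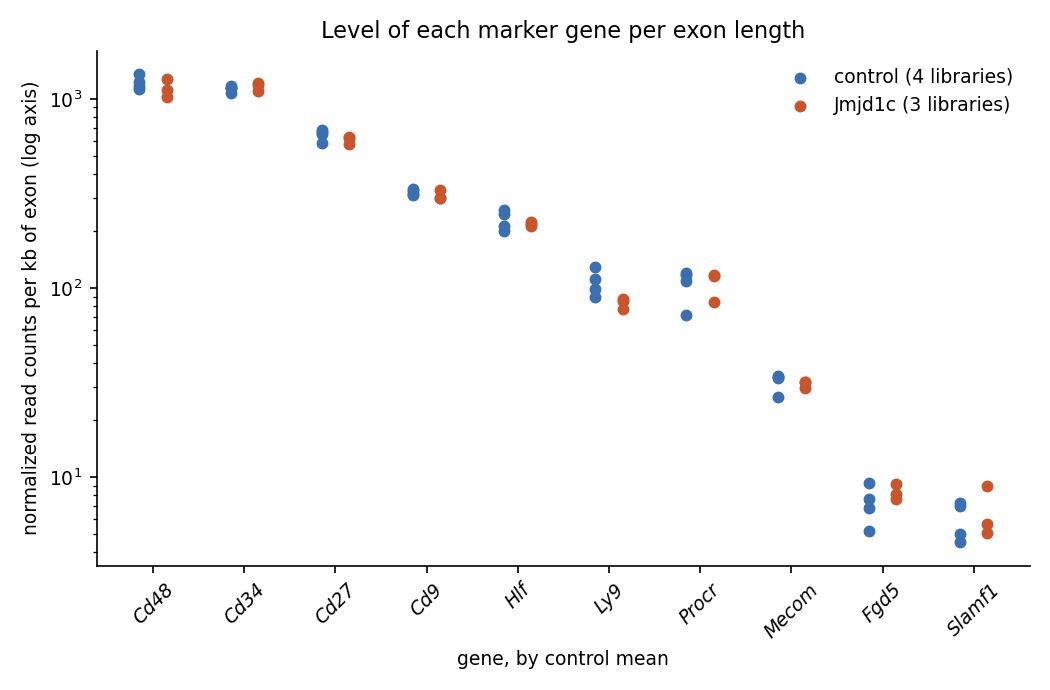
Normalized read counts per kb of exon (log axis) for each marker gene, one point per library, blue for the 4 control and orange for the 3 Jmjd1c libraries, ordered by control mean. Levels run from 1215 for Cd48 to 5.94 for Slamf1 in the control mean, and Ly9 is the single gene whose orange points all lie below its blue points.

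None of the 10 markers passed the threshold between control and Jmjd1c (adjusted p of 0.05 over all 12813 genes tested, limma), where 1.8% of all tested genes did. At an unadjusted p under 0.05 in limma 1 marker stood, Ly9, beside 19.7% of all genes. edgeR and DESeq2 on the recovered reads also called 0 of the 10, where 1.82% and 4.6% of all genes were called. Each had 1 marker at an unadjusted p under 0.05, beside 19.4% and 15.3% of all genes. Fold changes lay above 0 for 4 markers and below 0 for 6. Their median log2 fold change was -0.05, against -0.01 over all tested genes, and the median size was 0.08 against 0.15. The tested genes were not matched to the markers in level. By mean value the markers ranked above 20.0% (Slamf1) to 99.7% (Cd34) of them, with Cd9, Cd48, Cd27 and Hlf at 85.6% to 95.7%. For 7 of the 10 the 95% interval of the difference lay within 1.5-fold in either direction, as it did for 62.3% of all tested genes. The markers whose intervals reached past 1.5-fold were Slamf1, Fgd5 and Ly9, so differences of 1.5-fold were not excluded by the intervals of these 3.

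**Figure D2:**
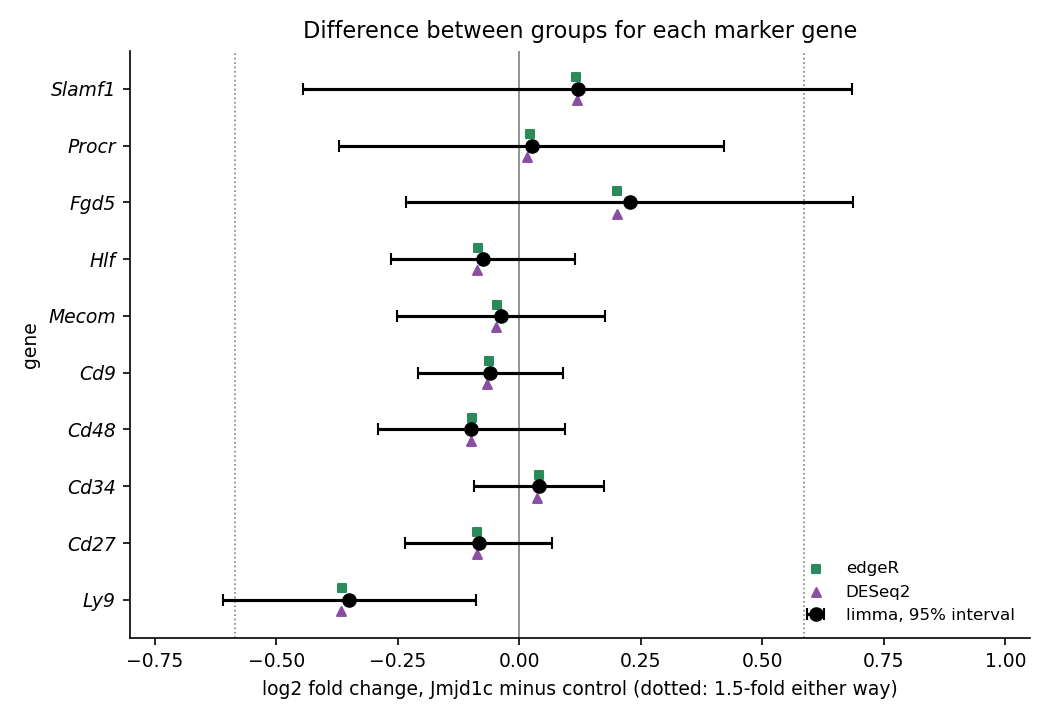
Log2 fold change of each marker gene, Jmjd1c minus control, from limma with its 95% interval (black), from edgeR (green squares) and from DESeq2 (purple triangles), with dotted lines at 1.5-fold either way. All intervals but that of Ly9 (-0.61 to -0.09) include 0, and those of Slamf1 and Fgd5 are the widest.

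Slamf1 encodes CD150, a receptor that binds itself on neighbouring cells (ENSMUSG00000015316; mm10 chromosome 1, 171767127 to 171801184, plus strand). It was 44.8, 27.8, 43.1 and 30.6 normalized read counts in controls 1 to 4 and 34.8, 30.9 and 55.2 in Jmjd1c 1 to 3. Jmjd1c 3 held the highest value and control 2 the lowest, and the groups overlapped. The means were 36.6 ± 8.64 and 40.3 ± 13.1, with a log2 fold change of 0.12 ± 0.26 (95% interval -0.44 to 0.69; limma, adjusted p = 0.831). The sign rested on Jmjd1c 3, without which it was -0.12. Counting error alone gives a coefficient of variation of 16.7% at this depth, and the libraries varied by 25.9%.

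Procr encodes the endothelial protein C receptor, used at the surface to enrich stem cells (ENSMUSG00000027611; chromosome 2, 155751117 to 155755471, plus strand). It was 243, 222, 239 and 146 in controls 1 to 4 and 238, 236 and 170 in Jmjd1c 1 to 3. Control 4 and Jmjd1c 3 lay below the other 5 libraries, which ran from 222 to 243. The group means of 213 ± 45.3 and 215 ± 38.4 gave a log2 fold change of 0.03 ± 0.18 (-0.37 to 0.42; adjusted p = 0.953), and -0.14 without control 4. Its libraries varied by 18.3%, against 7.004% from counting alone.

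Cd9 encodes a tetraspanin found on long-term stem cells and also on megakaryocytes (ENSMUSG00000030342; chromosome 6, 125460266 to 125494791, minus strand). It was 686, 635, 667 and 643 in controls 1 to 4 and 611, 612 and 670 in Jmjd1c 1 to 3. The 7 libraries spanned a narrow range, with a coefficient of variation of 4.53% against 3.96% from counting. Between groups Cd9 differed by -0.06 ± 0.07 on the log2 scale (-0.21 to 0.09; adjusted p = 0.662). The megakaryocyte list of 13, measured beside it, summed to 2755 to 3071 in control and 3167 to 3481 in Jmjd1c, and its part in the Cd9 value was not tested.

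Hlf, a PAR bZIP transcription factor of primitive stem cells, was the most highly expressed of the stem cell regulators (ENSMUSG00000003949; chromosome 11, 90336536 to 90390895, minus strand). Its values were 1725, 1423, 1645 and 1338 in controls 1 to 4 and 1415, 1482 and 1448 in Jmjd1c 1 to 3. All 3 Jmjd1c libraries lay inside the control range, with a coefficient of variation of 2.31% against 11.9% among controls. The log2 fold change was -0.07 ± 0.09 (-0.26 to 0.12; adjusted p = 0.669), and -0.14 without control 4, which held the lowest value.

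Mecom, whose products include the zinc finger factor EVI1 that supports self-renewal, was also within the spread of the controls (ENSMUSG00000027684; chromosome 3, 29951296 to 30548008, minus strand). It was 418, 416, 423 and 330.5 in controls 1 to 4 and 365, 394 and 397 in Jmjd1c 1 to 3. Controls 1 to 3 were nearly equal and lay above all Jmjd1c libraries, while control 4 lay below every other library. The log2 fold change was -0.04 ± 0.10 (-0.25 to 0.18; adjusted p = 0.864) with control 4 and -0.12 ± 0.08 (-0.30 to 0.06; adjusted p = 0.458) without it. The values sum all products of the locus, so MDS1-containing and EVI1 forms are not separated.

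Fgd5, a Cdc42 exchange factor whose expression within blood is largely limited to stem cells, was also sparse, at 27 to 62 recovered reads per library (ENSMUSG00000034037; chromosome 6, 91978878 to 92076004, plus strand). It was 48.0, 32.6, 58.3 and 42.9 in controls 1 to 4 and 51.3, 57.7 and 48.1 in Jmjd1c 1 to 3. The Jmjd1c values sat in the upper part of the control range. The log2 fold change was 0.23 ± 0.21 (-0.23 to 0.69; adjusted p = 0.581), and 0.08 without control 2, its lowest library. Counting error alone gives a coefficient of variation of 14.8%, beside 18.4% measured.

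**Figure D3:**
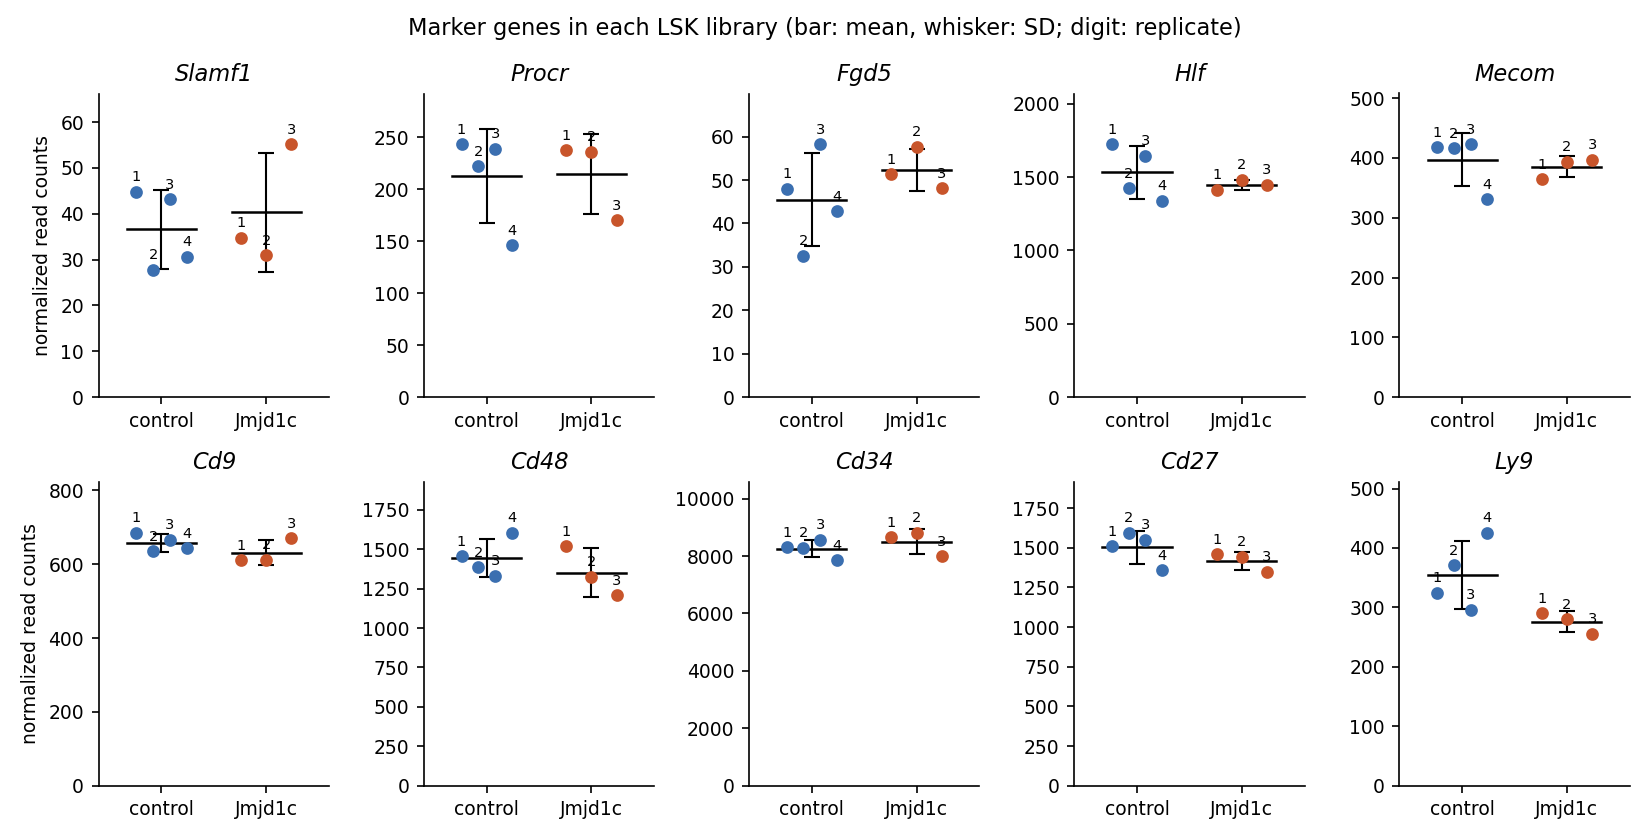
Normalized read counts of the 10 marker genes in each library (blue, 4 control; orange, 3 Jmjd1c; the digit is the replicate number), with the mean as a bar and the SD as a whisker, every axis from 0. The groups overlap in 9 genes, and in Ly9 the 3 Jmjd1c libraries (256 to 290) lie below the 4 control libraries (296 to 426).

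Of the progenitor markers, Cd34 was the most tightly bounded (ENSMUSG00000016494; chromosome 1, 194938819 to 194961279, plus strand). It was 8316, 8289, 8564 and 7850 in controls 1 to 4 and 8665, 8815 and 8003 in Jmjd1c 1 to 3. The 2 highest values were Jmjd1c libraries, and the third Jmjd1c library lay inside the control range. The log2 fold change was 0.04 ± 0.06 (adjusted p = 0.748), with a 95% interval of 0.938 to 1.13 times the control level. Cd34 ranked above 99.7% of tested genes by mean value.

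Cd48, a GPI-linked SLAM family protein that is absent from most stem cells and present on progenitors and mature leukocytes, was highest in control 4 and lowest in Jmjd1c 3 (ENSMUSG00000015355; chromosome 1, 171682009 to 171705258, plus strand). It was 1455, 1386, 1333 and 1606 in controls 1 to 4 and 1520, 1326 and 1209 in Jmjd1c 1 to 3. The groups overlapped. Between groups Cd48 differed by -0.10 ± 0.09 on the log2 scale (-0.29 to 0.09; adjusted p = 0.564), and by -0.05 without control 4. Its direction turned after a correction of each library for transcript GC content and length, where it was 0.13 (limma, adjusted p = 0.377).

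Cd27 marks the short-term and multipotent part of the pool as well as lymphocytes (ENSMUSG00000030336; chromosome 6, 125232622 to 125237010, minus strand). It was 1510, 1596, 1550 and 1359 in controls 1 to 4 and 1458, 1443 and 1350 in Jmjd1c 1 to 3. Controls 1 to 3 lay above all Jmjd1c libraries and control 4 lay among them. The log2 fold change was -0.08 ± 0.07 (-0.23 to 0.07; adjusted p = 0.530), and -0.13 ± 0.07 without control 4 (limma, adjusted p = 0.321).

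Ly9 encodes CD229, a SLAM family receptor that binds itself, is carried by most lymphocytes and within the LSK pool marks the lymphoid-leaning progenitors more than stem cells (ENSMUSG00000004707; chromosome 1, 171588624 to 171607410, minus strand). It was 325, 371, 296 and 426 in controls 1 to 4 and 290, 280 and 256 in Jmjd1c 1 to 3. All 3 Jmjd1c libraries lay below all 4 controls, although Jmjd1c 1 and control 3 were close. Groups that do not overlap were found for this 1 of the 10 markers and for 16.8% of all tested genes, 7.1% in the lower direction. The means were 354 ± 56.7 and 276 ± 17.7, with a log2 fold change of -0.35 ± 0.12 (95% interval -0.61 to -0.09). This did not pass the threshold (limma, adjusted p = 0.143; edgeR, 0.142; DESeq2, 0.0984), and the two-sided exact permutation test over 35 splits gave p = 0.0571, where the smallest possible value is 0.0286. Without control 4 the log2 fold change was -0.26 ± 0.11 (limma, adjusted p = 0.228).

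Marker lists of B cells and of T and NK cells were read beside Ly9. The 11 B cell genes summed to 516 to 613 normalized read counts in control and 452 to 488 in Jmjd1c, with no overlap, and control 4 was the highest, as it was for Ly9. Of the 7 that were tested 0 passed in limma, edgeR or DESeq2, with 4, 4 and 3 at an unadjusted p under 0.05 (19.7%, 19.4% and 15.3% of all genes), and their median log2 fold change was -0.80. Cd79b, a subunit of the B cell receptor and most of that sum, was 410 ± 25.3 and 370 ± 3.66 (log2 fold change -0.15, adjusted p = 0.309). Pax5, which defines the B lineage, averaged 0.583 in control and 0.276 in Jmjd1c. The 13 T and NK cell genes summed to 2298 to 2581 in control and 1997 to 2874 in Jmjd1c, with Cd3e at 5.52 and 4.06. The part of these cells in the Ly9 value was not tested.

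Other genes of the SLAM family were read as a list that holds Slamf1, Cd48 and Ly9 as well. It had 11 genes of the receptors and their SAP-type adaptors, of which 9 were tested, and 0 passed in limma, edgeR or DESeq2, with 2 at an unadjusted p under 0.05 in each. In limma 2 fold changes lay above 0 and 7 below. The median was -0.19, and 0.03 without control 4. Cd84, another self-binding receptor, was 768 ± 67.2 and 671 ± 52.4 (log2 fold change -0.19, adjusted p = 0.234), and Cd244a, which encodes 2B4, the receptor for CD48 that marks progenitors, was 334 ± 41.1 and 335 ± 45.1. Slamf7 was 307 in control 4 against 70.4 to 94.4 in the other controls and 64.6 to 114 in Jmjd1c. Slamf8, a macrophage receptor, was 335 against 60.0 to 104 and 66.0 to 135, and Slamf9 was 136 against 35.2 to 55.5 and 45.3 to 59.6. In these 3 genes, which were chosen after their values were seen, control 4 stood far above every other library, and their log2 fold changes of -0.45, -0.37 and -0.22 became 0.03, 0.13 and 0.17 without it. The adaptor Sh2d1a was at most 2.40 normalized read counts in any library, and Sh2d1b2 had 0 reads in all of them, which allows up to 3 reads over the 36927646 reads of the 7 libraries.

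Control 4 held the lowest value of all 7 libraries in Procr, Hlf, Mecom and Cd34 and the highest in Cd48 and Ly9. Relative to the control mean it was at -0.51 on the log2 scale in Procr, -0.26 in Mecom and -0.19 in Hlf, and at 0.16 in Cd48 and 0.28 in Ly9. Jmjd1c 3 was lowest in Cd48, Cd27 and Ly9 and highest in Slamf1. Macrophage and dendritic cell genes were highest in control 4, as given above, and their part in the marker values was not tested. Without control 4, 0 of the 10 markers passed in limma, 3 fold changes lay above 0 and 7 below, the median was -0.10, and 8 of 10 intervals lay within 1.5-fold. The log2 fold changes not given above were then 0.05 in Slamf1, 0.21 in Fgd5, -0.07 in Cd9 and 0.02 in Cd34.

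**Figure D4:**
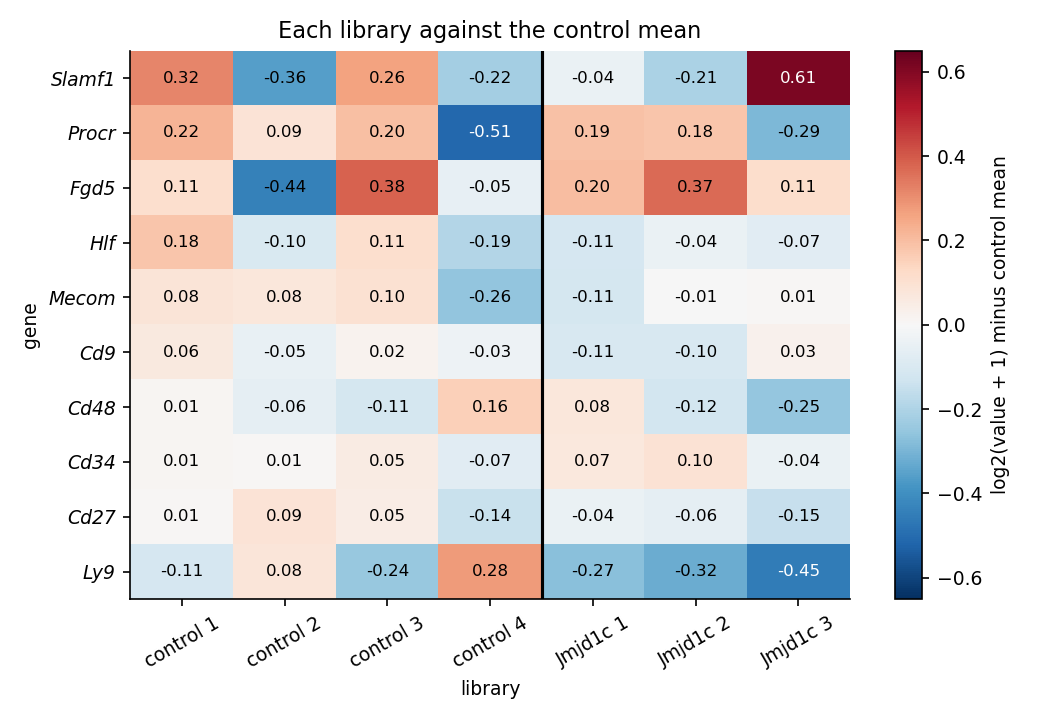
Log2(value + 1) of each marker gene minus the mean of the 4 control libraries, one column per library, red above and blue below, with the value printed in each cell. Control 4 is at -0.51 for Procr and 0.28 for Ly9, and the Ly9 row is negative in all 3 Jmjd1c libraries.

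Ratios within a library need no scaling between libraries. Slamf1 per 100 Cd48, the pair that defines the stem cell gate at the surface, was 3.08, 2.003, 3.23 and 1.91 in controls 1 to 4 and 2.29, 2.33 and 4.56 in Jmjd1c 1 to 3. The highest ratio was that of Jmjd1c 3, and the other 2 Jmjd1c libraries lay inside the control range. Hlf per 100 Cd48 was 107 ± 18.1 in control and 108 ± 13.7 in Jmjd1c, with control 4 lowest at 83.3. Mecom per 100 Cd48 was 27.8 ± 4.95 and 28.8 ± 4.47, and Procr per 100 Cd48 was 14.9 ± 3.98 and 15.8 ± 1.87. The differences in these 4 ratios to Cd48 were smaller than the SD within either group. Without control 4 the control means were 2.77 for Slamf1, 115 for Hlf, 30.2 for Mecom and 16.9 for Procr, so that the last 3 then lay above Jmjd1c. Per 100 Ly9, the level of Hlf was 446 ± 116 in control and 527 ± 39.2 in Jmjd1c, Mecom 115 ± 28.1 and 140 ± 14.7, and Procr 62.5 ± 20.7 and 77.5 ± 9.58. These 3 differences exceeded the SD of the Jmjd1c libraries but not that of the controls, and without control 4 the control means were 490, 128.0 and 71.8. Hlf per 100 Cd34 was 18.5 ± 1.77 and 17.1 ± 0.910, and Cd48 per 100 Cd34 17.6 ± 2.09 and 15.9 ± 1.42, and without control 4 the control means were 19.0 and 16.6. Flt3 per 100 Cd34, which sets the receptor of lymphoid-primed progenitors against the general progenitor marker, was 65.9 to 69.5 in control and 50.5 to 61.1 in Jmjd1c, without overlap. That pair was chosen after seeing the data. Flt3 alone was 5585 ± 321 and 4725 ± 636, which did not pass (-0.25 ± 0.09 on the log2 scale; limma, adjusted p = 0.157; -0.14 without Jmjd1c 3).

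Other stem cell genes, listed with earlier results of these data known, were read as a list of 30. Of the 28 tested, 0 passed in limma and 0 in edgeR, with 9 at an unadjusted p under 0.05 in each (19.7% and 19.4% of all genes). DESeq2, which called 4.6% of all genes, called 4, Sult1a1, Trpc6, Tgm2 and Mycn. Sult1a1 was lower in Jmjd1c, and Trpc6, Tgm2 and Mycn were higher. The log2 fold changes in limma of Trpc6, Tgm2 and Mycn were 1.09 ± 0.31, 0.88 ± 0.23 and 0.58 ± 0.15. There were 14 fold changes above 0 and 14 below and a median of 0.01, against -0.01 over all tested genes. Sult1a1, a sulfotransferase, had the smallest p and was 45.4 ± 4.90 and 22.9 ± 7.65 (-1.01 ± 0.25 on the log2 scale; adjusted p = 0.0609). In limma without Jmjd1c 1, 3 genes of the list rose, in a fit that called 624 of all tested genes, against 231 with all libraries.

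Of 29 other progenitor genes 28 were tested in limma, 2 fell, 0 rose and 26 did not pass, with 9 fold changes above 0, 19 below and a median of -0.16. At an unadjusted p under 0.05 there were 14 of these genes in limma, 13 in edgeR and 13 in DESeq2, beside 19.7%, 19.4% and 15.3% of all genes. Of those in limma, Csf3r (log2 fold change 0.24, limma adjusted p = 0.0983) and Csf2ra (0.43, 0.251) lay above 0 and the others below. Il7r, the receptor of the growth factor of early lymphocytes, fell from 80.4 ± 4.87 to 41.5 ± 6.79 (log2 fold change -0.95 ± 0.16; limma, adjusted p = 0.0317). Ctsg, a granule protease of myeloid progenitors, fell from 455 ± 44.4 to 330 ± 35.7 (-0.46 ± 0.10, adjusted p = 0.0468). Over all tested genes 0.289% were called lower. Dntt, which encodes the terminal transferase of early lymphoid cells, was 3524 ± 410 and 2563 ± 340 with no overlap (log2 fold change -0.46; limma, adjusted p = 0.0531), and DESeq2 called it and Elane besides. Ccr9, a chemokine receptor of thymus-seeding progenitors, was 198 ± 17.7 and 82.7 ± 60.5 (-1.63, adjusted p = 0.0967). It was 20.0 in Jmjd1c 3, and the log2 fold change was -0.82 without that library and -2.20 without Jmjd1c 1, where it was called (limma, adjusted p = 0.0194). Dntt, Ccr9, Csf3r and Csf2ra were picked after their values were seen. The count of fallen genes was 4 without control 4, 3 without Jmjd1c 1 and 0 without each of the other 5 libraries. Over all tested genes, 202 were called without control 4, 624 without Jmjd1c 1 and 3 to 68 without each of the others. Among these 7 fits Ctsg was called in the one without control 4, and Il7r in those without control 4 and without Jmjd1c 1.

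Families around single markers were also read as lists, and none held a call in limma with all 7 libraries and the filter and pseudocount chosen. Of 14 tetraspanins tested, Cd9 among them, 6 had an unadjusted p under 0.05 in limma (19.7% of all genes), and the nearest to the threshold was Tspan3, at 400.4 ± 26.4 and 582 ± 115 (log2 fold change 0.52 ± 0.12; limma, adjusted p = 0.0504), which edgeR (0.0496) and DESeq2 (0.00225) called. In limma Tspan3 was called without the low-value filter (adjusted p = 0.0370), with a filter of 50 (0.0446), with a pseudocount of 10 (0.0472), with array weights (0.0450) and without Jmjd1c 1 (0.00920). Cd70, the ligand of CD27, had 0 reads in all libraries, and 0 of 10 tested genes of the CD27 group passed or had an unadjusted p under 0.05 in limma, edgeR or DESeq2. The nearest there was Cd40, a relative of CD27 on B cells and macrophages, at 33.6 ± 13.2 and 20.5 ± 3.79 (log2 fold change -0.62, adjusted p = 0.285; -0.40 without control 4). Tef, the closest relative of Hlf in the PAR bZIP group of 4, was 94.4 ± 9.57 and 107 ± 7.17 (adjusted p = 0.469). The PAR bZIP, PRDM and protein C groups also held 0 genes at an unadjusted p under 0.05 in these tools, and the FGD group 2 in limma and edgeR and 1 in DESeq2. Of 8 PRDM genes with Mecom 0 passed, with 2 fold changes above 0 and 6 below. Of 6 genes in the FGD group the nearest was Fgd4 (log2 fold change -0.40, adjusted p = 0.191), and of 5 in the protein C group the thrombin receptor F2r (0.22, adjusted p = 0.286). Among 5 sialomucins, Cd34 included, 3 had an unadjusted p under 0.05 in limma, and Selplg, the P-selectin ligand, was 1087 ± 102 and 1449 ± 219 (0.41, adjusted p = 0.0609). DESeq2 called Selplg (adjusted p = 0.00556), as did limma without Jmjd1c 1 (0.0297). Emcn, an endothelial sialomucin, was called lower in limma without control 4 (-0.63, adjusted p = 0.0328).

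The genes most like Slamf1 and Cd48 over the 7 libraries were ranked by Pearson's r of log2(value + 1) among genes with a mean of at least 50. Gata3, a transcription factor that is also expressed in stem cells, stood first for Slamf1 (r = 0.963), followed by Ddx47 (0.956) and Tmem120a (0.956). For Cd48 they were Rnf2 (0.996), Mterf3 (0.979) and Fabp5 (0.967). With 7 libraries that share their scaling and over 9594 genes ranked, these values describe the libraries and carry no test.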

How the data were processed

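Bulk RNA-seq of sorted LSK cells was analysed from 1 deposited table of 39179 Ensembl gene IDs and 7 libraries. Its values are a signal per gene that the authors obtained by scaling reads with a size factor: within each deposited column they are whole multiples of 1 step, and 100% of the values above 0 came out as whole reads within a tolerance of 0.01 of a read. Per the submitters' processing notes the tools were Trim Galore 0.2.8, STAR, HTSeq 0.6.1p1 and DESeq 1.18.0 with the build mm10. RNA was extracted with Trizol and amplified with a SMARTer ultra-low-input kit, per the labels' protocols. For the counting, the annotation release and strand setting were not given in the sources used here. Reads from overlapping genes on opposite strands might therefore be lost or shared, and exons of Mecom and Cd34 share 0.652% and 2.03% of their bases with an opposite-strand gene of the table. Cd27 shares 5.54% with a gene on its own strand. Symbols were matched for 37607 IDs, and positions and exon lengths come from GENCODE M21 on GRCm38, the assembly that mm10 names.

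The test was limma-trend (limma 3.58.1, R 4.3.3) on log2(value + 1), 4 control against 3 Jmjd1c libraries, for the 12813 genes that reached 10 in 3 or more libraries. All 10 markers passed that filter. Adjustment was by Benjamini-Hochberg over all genes tested, and fold changes on this scale understate those of low genes. Errors beside means are SDs, those of log2 fold changes are standard errors, and intervals are 95%. edgeR 4.0.16 and DESeq2 1.42.0 were run on the recovered reads as alternatives, and the steps were tested on simulated data. The markers and gene lists were chosen with earlier results of these data known. Genes named by rule are the markers, Jmjd1c, Kit, Ly6a, called members of each list or else the one with the smallest p, and the 3 genes most like Slamf1 and Cd48. Others were chosen after their values were seen, and they are Cd84, Cd244a, Slamf7, Slamf8, Slamf9, Sh2d1a, Sh2d1b2, Flt3, Dntt, Ccr9, Cd79b, Pax5, Cd3e, Cd70, Cd74 and the genes named as calls of DESeq2. Csf3r and Csf2ra were chosen in the same way. Lists of other cell types are given in the observations. A few genes that the rule would name are not reported here.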

Additional observations from a re-analysis of the deposited data

Results flagged for a closer look

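In 3 of 23 sets of 4 control values examined, 1 library lay far from the other 3 by Dixon's criterion, which flags about 1 in 20 sets by chance. Mecom was 330.5 normalized read counts in control 4 against 416 to 423 in controls 1 to 3. The summed T and NK cell markers were 2581 in control 1 against 2298 to 2334 in the others. The summed macrophage and dendritic cell markers were 72542 in control 4 against 17421 to 26548 in the others. Mecom and the macrophage genes thus stood apart in the same library, and whether the one bears on the other was not tested.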

How the results depend on the processing

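No marker was called under any of the 21 alternatives, and of 199 marker values under those alternatives that keep a fold change, 189 kept their direction and 10 turned. Procr turned to -0.0039 with quantile normalization and to -0.14 with the replicate block and with replicates 1 to 3 alone, and leaving out 1 library it ran from -0.14 to 0.18. Control 4 is the single library numbered 4, so replicates 1 to 3 alone is the same fit as that without control 4. The replicate block gives the same fold changes as that fit, with other p-values. All counts of alternatives list these settings separately, so a dependence on control 4 is counted more than once. With GC content and length corrected, Cd9 became 0.041, Cd48 0.13 and Ly6a 0.084, and the median of the markers 0.042. Leaving out 1 library in turn, Slamf1 ran from -0.12 to 0.28 and Mecom from -0.12 to 0.0005. Slamf7, Slamf8 and Slamf9 became 0.030, 0.13 and 0.17 with the replicate block and with replicates 1 to 3 alone, the same values as without control 4. Leaving out 1 library, they ran from -0.68 to 0.030, from -0.70 to 0.13 and from -0.48 to 0.17. Ly9 stayed below 0 in all 20 fits that gave it a fold change (-0.43 to -0.26, adjusted p 0.0984 to 0.360). The marker median ran from -0.10 to -0.01 without each library. Slamf1 was not tested under the filter of 50. Over all genes 231 were called, against 0 without limma's intensity trend (2213 at an unadjusted p under 0.05, with Jmjd1c at an adjusted p of 0.117), 14 with the replicate block (7 higher and 7 lower, against 194 higher and 37 lower), 34 after the GC and length correction, 590 with DESeq2, 716 at a threshold of 0.1, and 3 to 624 leaving out 1 library (3 without control 2, control 3 or Jmjd1c 2, 9 without Jmjd1c 3, 68 without control 1, 202 without control 4 and 624 without Jmjd1c 1). Same-numbered libraries did not deviate together (correlations over genes of -0.152, -0.002 and 0.017 for pairs 1 to 3). No Jmjd1c library correlated best with the control of its own number. With 3 such pairs, these correlations cannot show whether the samples were paired, and the labels do not state it. The cause of these changes was not tested. Slamf1 and Fgd5 are limited by depth, with at most 56 and 62 reads per library.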

Other observations

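Markers of other cell types were read as lists, since the sorted cells could hold some of them. Among 13 mast cell, basophil and eosinophil genes, which summed to 6513 to 10182 normalized read counts in control and 3195 to 5891 in Jmjd1c, 1 of 11 tested fell, where 0.289% of all genes were called lower. Of these 11, 8 had an unadjusted p under 0.05 in limma, beside 19.7% of all genes, and DESeq2 called Cyp11a1 as well. The gene that fell was Prss34, a basophil protease, at 5718 ± 1243 and 2720 ± 978 (log2 fold change -1.12; limma, adjusted p = 0.0410). The call of Prss34 was lost in 8 of 20 alternatives (adjusted p up to 0.176), and without Jmjd1c 3 the log2 fold change was -0.78. Among 9 plasma cell genes Igha, the constant region of IgA, fell (2749 ± 1876 and 553 ± 352; -2.29; limma, adjusted p = 0.0376), a call lost in 7 of 20 alternatives (adjusted p up to 0.207). The list summed to 19023 to 29122 in control and 9975 to 30264 in Jmjd1c. Among 10 tested megakaryocyte genes 1 rose, where 1.51% of all genes were called higher. This was Itga2b, the integrin CD41, at 281 ± 14.8 and 428 ± 76.4 (0.59; limma, adjusted p = 0.0374). That call was lost in 8 of 20 alternatives (adjusted p up to 0.207), and with GC content and length corrected the log2 fold change of Itga2b was 0.37. Leaving out 1 library, Prss34 and Itga2b were called without control 4 and without Jmjd1c 1, as was Igha, and none of these 3 without any of the other 5. Each of those other 5 fits called 3 to 68 of all tested genes.

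The other lists held 0 calls in limma and in edgeR. Leaving B cells aside, the smallest p of each was that of Cd4 in T and NK cells (log2 fold change -0.82, limma adjusted p = 0.222, and -0.48 without control 4), Klf1 in erythroid cells (1.23, 0.103), Camp in neutrophils (-0.69, 0.0576), Cd5l in macrophages (-1.31, 0.232), Emcn in endothelium (-0.50, 0.103) and Cxcl12 in stroma (-1.16, 0.0992). At an unadjusted p under 0.05 in limma these 6 lists held 1, 2, 4, 2, 1 and 2 genes in that order, beside 19.7% of all genes. Their median log2 fold changes, in the same order and with control 4 included, were -0.26, -0.08, -0.36, -0.43, -0.14 and 0.29. Klf1 and Cxcl12 thus ran against the median of their lists. Above 0 were 5 erythroid and 3 stromal genes, and below 0 were 7 and 2. DESeq2 called Klf1 and the neutrophil genes S100a8 and S100a9. Erythroid genes summed to 13833 to 16099 in control and 14416 to 15156 in Jmjd1c, and neutrophil genes to 9958 to 13392 and 6911 to 9928, without overlap. Endothelial genes summed to 1849 to 2217 and 1854 to 2037, and stromal genes to 351 to 501 and 371 to 653. Of the 9 genes of the sorting gate Il7r alone was called. The part of such cells in the marker values was not tested.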
